A study of Mus musculus with 28 samples.

Results

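The p53 pathway and the Bcl2 family are described here through 10 genes: Trp53, Mdm2, Cdkn1a, Cdkn2a, Bbc3, Bax, Bcl2, Bcl2l1, Bcl2l11 and Mcl1. They were chosen by symbol as the core regulators, targets and death switches of these routes, a rule that uses no measured value, and they are 10 of the 18182 genes in the deposited table. RNA sequencing was done on 28 mouse liver libraries, 14 of hepatocellular carcinoma and 14 of peritumour tissue, which the sample codes join into 14 pairs, each taken as 1 animal. Every animal, and so every peritumour control too, is labelled c-Myc/Alb-cre transgenic, where Alb-cre is a Cre recombinase under the hepatocyte-active albumin promoter. The groups are Tu_F and Pe_F with 11 libraries each, and Tu_M and Pe_M with 3 each, Tu standing for tumour and Pe for peritumour. The labels do not spell out F and M, and age, treatment and the number of nodules behind a tumour library are not given in the sources used here. No library without the transgene was analysed here.

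Trp53 encodes p53, a transcription factor that halts the cell cycle or starts cell death after DNA damage or oncogene activity. Mdm2 marks p53 for destruction, and p19Arf, one of the products of Cdkn2a, holds Mdm2 back; the other product, p16Ink4a, inhibits the cyclin D kinases. Among the genes p53 switches on are Cdkn1a, which encodes the cyclin kinase inhibitor p21, and Bbc3, which encodes Puma, a BH3-only protein. BH3-only proteins such as Puma and Bim (Bcl2l11) free or activate Bax, which opens the outer mitochondrial membrane, while Bcl2, Bcl-xL (Bcl2l1) and Mcl1 keep it closed. In hepatocytes Mcl1 and Bcl-xL are the guardians known to be needed for survival, and in Myc-driven tumours the route from Arf to p53 is a classical brake.

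The sequence just upstream of the starts of 3 members is shown. Trp53 and Cdkn2a were the members called higher in tumour with the animal as a block, and only Trp53 also passed without it. Cdkn1a is the best known p53 target. All are RefSeq windows on GRCm38.p6, read 5′ to 3′ on the gene's strand and ending 1 base before an annotated start. In the windows of Trp53 (chr11:69580109-69580358, plus strand) and of the first Cdkn1a start (chr17:29090729-29090978, plus strand), capitals mark matches to the p53 half-site consensus. In both Cdkn2a windows (start 1, chr4:89294620-89294869, and start 2, chr4:89282193-89282442, minus strand), capitals mark matches to TTTNNCGC. This is a loose form of the E2F motif, in which N is any base.
Trp53: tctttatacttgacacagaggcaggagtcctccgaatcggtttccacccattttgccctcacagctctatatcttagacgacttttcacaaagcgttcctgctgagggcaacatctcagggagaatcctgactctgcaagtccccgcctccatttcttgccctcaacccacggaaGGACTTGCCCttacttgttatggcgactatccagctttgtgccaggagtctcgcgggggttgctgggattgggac
Cdkn1a: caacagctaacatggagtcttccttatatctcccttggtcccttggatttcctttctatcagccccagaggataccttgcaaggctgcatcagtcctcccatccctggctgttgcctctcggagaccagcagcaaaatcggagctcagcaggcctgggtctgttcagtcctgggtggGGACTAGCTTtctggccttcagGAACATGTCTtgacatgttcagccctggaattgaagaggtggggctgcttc
Cdkn2a start 1: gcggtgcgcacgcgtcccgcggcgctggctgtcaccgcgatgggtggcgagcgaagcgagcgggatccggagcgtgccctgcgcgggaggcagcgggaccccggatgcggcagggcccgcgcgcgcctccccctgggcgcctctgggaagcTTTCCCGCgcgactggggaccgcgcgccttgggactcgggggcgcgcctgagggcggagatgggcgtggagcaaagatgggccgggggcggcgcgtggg
Cdkn2a start 2: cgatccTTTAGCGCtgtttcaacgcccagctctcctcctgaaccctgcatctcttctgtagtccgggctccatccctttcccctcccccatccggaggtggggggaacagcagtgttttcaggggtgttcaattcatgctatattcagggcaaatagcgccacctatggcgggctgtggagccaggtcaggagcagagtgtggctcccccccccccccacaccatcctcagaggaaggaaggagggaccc
All 10 members had an entry in the promoter table, with 17 start windows of 250 bases between them, and both strands were searched. The half-site consensus, 10 bases long, was in 7.13% of all 32851 windows of the table and in those of Trp53, Mdm2, Cdkn1a start 1 and Bax. Cdkn1a start 1 held 2 matches, which begin 73 and 51 bases before the start, and Cdkn1a start 2, not shown, held none. TTTNNCGC was in 4.28% of windows and in those of Mdm2, both Cdkn2a starts and 1 of 3 Bcl2l1 starts. CACGTG, the E-box core that Myc is known to bind, was in 6.02% of windows, and among members in Bax (9 bases before the start) and in 1 of 3 Bbc3 starts. These matches describe letters in the windows, and binding was not measured here.

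Each library held between 14777567 and 17576921 estimated counts. Values below are CPM, a count divided by its library's total and scaled to a common size, unless TPM, which is also scaled by transcript length, is named. Of the 8 hepatocyte markers all were detected in every library, with a summed level of 16990 to 55830 CPM in peritumour tissue (median 38230) and 19300 to 44620 CPM in tumour (median 28490). That sum was higher in tumour in 3 of 14 pairs. Tumour tissue of F replicate 2 stood apart: its 5 cholangiocyte markers summed to 1928 CPM against a tumour median of 68.75, its macrophage and monocyte markers to 1048 CPM against 370.4, and its hepatocyte markers to 19300 CPM, the lowest of the 14 tumours. It also had the highest TMM scaling factor, 1.36, while tumour tissue of F replicate 11 had the lowest, 0.809. Sample codes come in 2 styles, 6 animals in the first, among them every M animal, and 8 in the second, and the style was treated as a possible batch.

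Per transcript length the 10 genes fell into tiers. In peritumour tissue Trp53 (median 103.5 TPM), Cdkn1a (102.3), Bax (101.4) and Mcl1 (86.24) were the highest, and their ranges over 14 libraries overlapped. Bcl2l1 (28.01 TPM) and Mdm2 (22.44) came next, followed by Bbc3 (12.66) and Bcl2l11 (5.225). Bcl2 (0.87 TPM, a median of 61.5 estimated counts) and Cdkn2a (0.29 TPM, a median of 2 counts) were the lowest. Bcl2 lay above Cdkn2a in 13 of 14 peritumour libraries but in 5 of 14 tumours, where their medians were 0.59 and 0.715 TPM. Between neighbours in this order, ranges were separate only from Mcl1 to Bcl2l1, from Mdm2 to Bbc3 and from Bcl2l11 to Bcl2. Of the summed TPM of the 3 anti-apoptotic members, Mcl1 made up a median of 75.0% in peritumour tissue and 75.4% in tumour, Bcl2l1 24.5% and 24.1%, and Bcl2 0.682% and 0.476%. Mcl1 was thus the most abundant of these guardians at the transcript level in both tissues, and its share ranged from 66.0% to 83.3% in tumour.

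**Figure D1:**
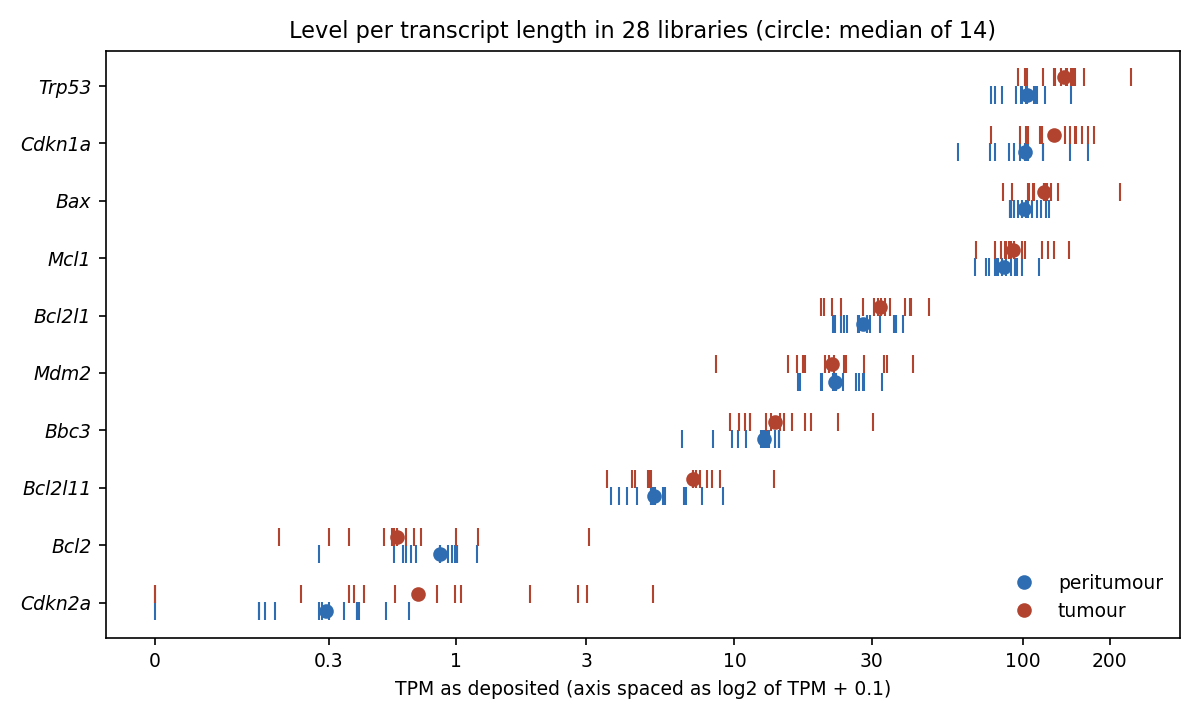
Deposited TPM of the 10 members in each of 28 libraries, peritumour in blue and tumour in red, 1 tick per library and a circle at the median of 14; the axis is spaced as log2 of TPM + 0.1. Trp53, Cdkn1a, Bax and Mcl1 sit near 100 TPM, while Bcl2 and Cdkn2a have medians under 1 TPM in both tissues.

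The question set by the series is what separates tissue inside the tumour from tissue around it. With the animal as a block in edgeR's quasi-likelihood test, 2 of 10 members were higher in tumour, Trp53 and Cdkn2a, and none was lower, against a background of 11.5% of 14117 tested genes called in either direction, 5.59% called higher and 5.91% called lower. Cdkn2a passed the low count filter through tumour libraries alone. With the block but no such filter 1 of 10 members was called, Trp53, beside 1356 of 18145 genes. Without the block 1 of 10, Trp53, was higher, against a background of 1.05% called, 0.808% higher and 0.241% lower. The median log2 fold change of the members was 0.20 with the block and 0.21 without it, beside -0.01 and 0.01 over all genes tested. In both fits 8 of 10 estimates were positive, and Mdm2 and Bcl2 were the negative ones. The deviations of the 2 libraries of a pair were positively correlated in all 14 pairs (r from 0.135 to 0.61). In 10 of 14 animals the tumour matched its own peritumour library best. The exceptions were M replicates 1 and 3 and F replicates 2 and 6. The sample codes set the pairs, and values with the block are given as well as those without it. Bulk tissue cannot tell fewer cells of a type from less RNA per cell.

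Trp53 was moderately higher in tumour and showed it in nearly every animal. It lies on chromosome 11 at 69580359 to 69591873 (gene ID 22059). Tumour libraries ranged from 100.9 to 238.0 CPM with a median of 146.2, and peritumour libraries from 81.47 to 151.5 CPM with a median of 109.3. The 2 tissues overlap as groups, but the tumour library was the higher one in 13 of 14 pairs. The exception was M replicate 1, at 100.9 CPM beside 104.2 CPM in the peritumour library. In CPM the highest ratio was in F replicate 2, 238.0 against 117.7 CPM. With TMM scaling F replicate 11 had the largest pair difference, 0.84 on the log2 scale, followed by F replicate 9 (0.78) and, at 0.63, F replicate 2. The mean difference within pairs was 0.38 on the log2 scale (SD 0.26, n = 14, 95% interval 0.23 to 0.53). Trp53 rose by 0.38 ± 0.07 (log2 fold change ± SE) with the block, adjusted p = 0.00533 (edgeR), and by 0.39 ± 0.10 without it, adjusted p = 0.0471. The blocked call held without each of the 14 animals in turn (adjusted p 0.00404 to 0.0151), whereas the unblocked one held only without M replicate 1 or F replicate 3 (0.0403 to 0.12 over the 14). By code style the blocked value was 0.29 in the first (adjusted p = 0.55) and 0.45 in the second (adjusted p = 0.026, edgeR).

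Cdkn2a was a transcript of few counts that was raised in a subset of tumours. The gene spans chromosome 4, 89274473 to 89294619 (gene ID 12578), and the deposited table counts it as 1 gene with 2 transcripts, so p16Ink4a and p19Arf are not told apart. Tumour libraries held 37 estimated counts in F replicate 2, 23 in F replicate 3, 22 in F replicate 5 and 15 in F replicate 7. The others held 8 (F replicate 6), 7 and 6 (M replicates 2 and 1), 5 (F replicate 11), 3 (F replicates 1, 4 and 9), 2 (F replicate 10) and 0 (F replicate 8 and M replicate 3). Peritumour libraries held 0 to 5 counts with a median of 2, and 7 of 14 tumours lay above the highest of them. The limit set for a count of 0, 3 counts, corresponds to 0.171 to 0.203 CPM over the 28 libraries, and the peritumour median of 0.1299 CPM lies below it. For the 3 libraries at 0 the upper ends of the exact two-sided 95% Poisson intervals, which are wider than that limit, are 0.217, 0.219 and 0.236 CPM. At the other end, tumour tissue of F replicate 2 measured 2.373 CPM (exact 95% Poisson interval 1.67 to 3.27, counting error only) beside 0.1299 CPM (0.0157 to 0.469) in its peritumour tissue.

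Tumour was the higher tissue for Cdkn2a in 11 of 14 pairs, the exceptions being F replicates 1 and 8 and M replicate 3. Over all libraries the counts summed to 134 in tumour and 31 in peritumour tissue. Cdkn2a rose with the block by 1.61 ± 0.47 (log2 fold change ± SE), adjusted p = 0.0352 (edgeR), and its value without the block was 1.82 ± 0.48, adjusted p = 0.059. The blocked call was lost without any 1 of F replicates 3, 5, 6, 7, 9 and 11 and M replicate 2 (adjusted p 0.0153 to 0.0725 over the 14 animals), and also without the low count filter (0.0501). Cdkn2a passed the low count filter through tumour libraries alone: 4 tumours held more than 10 counts, and no peritumour library held more than 5. DESeq2 called it after the same filter, with and without the block (adjusted p = 0.0244 and 0.0208), which is not separate support. All these calls concern a gene admitted to the test by the tissue where it is high. Proliferation markers (Mki67, Top2a, Ccnb1 and Cdk1, all 4 detected) summed to 103.3 to 675.2 CPM in tumour, with the highest sum in F replicate 2, and to 120.7 to 551.0 CPM in peritumour tissue. In F replicates 3 and 5 that sum was lower in tumour than around it. The tumours with the 3 highest Cdkn2a counts, F replicates 2, 3 and 5, also had the 3 highest tumour sums of stellate cell and fibroblast markers (1087, 906.2 and 1277 CPM, all 6 markers in the table), and theirs were the only 3 of 14 pairs with that sum higher in tumour. Over all libraries the stellate and fibroblast sum ran from 157.2 to 1277 CPM in tumour and 314.4 to 1065 CPM in peritumour tissue. These 3 tumours likewise had the highest sums of T and NK cell markers (32.27, 38.49 and 28.91 CPM, tumour median 14.87) and of cholangiocyte markers (1928, 221.0 and 143.7 CPM). F replicate 7 was next in Cdkn2a with 15 counts in tumour. Its stellate and fibroblast sum was 550.7 CPM in tumour (tumour median 392.2) and 646.8 CPM around it. Its T and NK sums were 22.73 CPM in tumour (tumour median 14.87) and 23.2 CPM around it. Its cholangiocyte sums were 35.57 CPM in tumour (tumour median 68.75) and 151.7 CPM around it. Macrophage and monocyte sums in tumours of F replicates 2, 3, 5 and 7 were 1048, 621.9, 462.7 and 528.1 CPM (tumour median 370.4). Around these tumours they were 486.6, 522.6, 436.9 and 552.8 CPM. The part of proliferating, stromal, lymphoid, macrophage or biliary cells in the Cdkn2a counts was not tested.

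**Figure D2:**
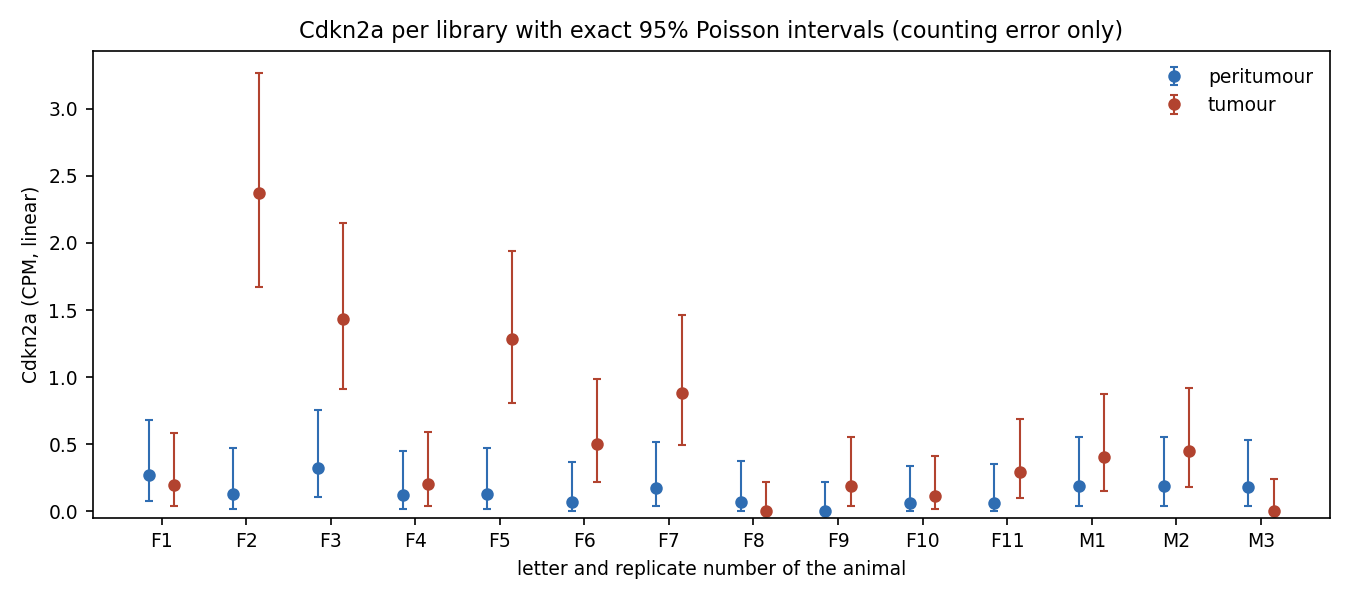
Cdkn2a in CPM (linear axis) for each animal, peritumour in blue and tumour in red, with exact 95% Poisson intervals that cover counting error only. F replicates 2, 3, 5 and 7 have the 4 highest tumour values, 0.8834 to 2.373 CPM, and no peritumour library exceeds 0.3227 CPM.

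Mdm2, the p53 ubiquitin ligase and itself a p53 target, gave no difference between tissues that passed, and its pairs went both ways. It lies on chromosome 10 at 117688875 to 117710758 (gene ID 17246). Tumour libraries ranged from 18.51 to 76.91 CPM with a median of 42.97, and peritumour libraries from 31.91 to 60.48 CPM with a median of 42.69. Medians were nearly equal while the tumours spread more widely on both sides. Of the 14 pairs 6 were higher in tumour, most on the CPM scale in F replicate 2 (76.91 against 50.91 CPM), and 8 were lower, most in F replicate 11 (18.51 against 34.25 CPM). The log2 fold change was -0.10 ± 0.09 with the block (adjusted p = 0.466, edgeR) and -0.09 ± 0.11 without it (0.699), and the 95% interval of the mean pair difference ran from -0.30 to 0.09.

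Cdkn1a, the p21 gene, was higher in most tumours but did not pass the test. It lies on chromosome 17 at 29090979 to 29100722 (gene ID 12575), next to the window shown above. Tumour libraries ranged from 86.18 to 202.3 CPM (median 148.8) and peritumour libraries from 70.87 to 187.2 CPM (median 112.7). The tissues overlapped over most of their range, and 11 of 14 pairs were higher in tumour. M replicate 3 (170.0 against 70.87 CPM) and F replicate 9 (181.1 against 84.05 CPM) had the widest gaps, and F replicate 7 went the other way, at 117.6 CPM beside 187.2 CPM in the peritumour library. With the block the log2 fold change was 0.31 ± 0.13, adjusted p = 0.125, and without it 0.33 ± 0.13, adjusted p = 0.188 (edgeR). Without F replicate 7 the blocked value was 0.39 with adjusted p = 0.0493, the only 1 of the 14 omissions that brought it under 0.05.

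The death effectors downstream of p53 gave small positive values that did not pass. Bbc3, the gene of Puma (chromosome 7, 16308320 to 16318334, gene ID 170770), ranged from 10.3 to 32.27 CPM in tumour (median 15.09) and from 6.881 to 16.26 CPM in peritumour tissue (median 13.77). It was higher in tumour in 11 of 14 pairs. In CPM tumour tissue of F replicate 2 was highest, at 32.27 against 10.52 CPM, followed by F replicate 9 at 23.21 CPM. Divided by its TMM factor of 1.36, the tumour value of F replicate 2 was 23.7, and the factor of F replicate 9 was 0.979. The log2 fold change of Bbc3 was 0.29 ± 0.11 with the block, adjusted p = 0.108, and 0.31 ± 0.16 without it, adjusted p = 0.295 (edgeR). Bax, the pore-forming protein (chromosome 7, 45461695 to 45468205, gene ID 12028), was among the steadiest members, at 40.87 to 57.0 CPM in peritumour tissue (median 48.4) and 41.0 to 61.11 CPM in 13 tumours, with F replicate 2 apart at 97.76 CPM before TMM scaling. Divided by the TMM factor, Bax in that tumour was 71.9. Tumour tissue of F replicate 11, with the lowest factor of 0.809, held 55.48 CPM. On the CPM scale 12 of 14 pairs were higher in tumour, and with TMM scaling 11. The Bax value was 0.17 ± 0.07 with the block, adjusted p = 0.111, and 0.18 ± 0.08 without it, adjusted p = 0.218 (edgeR).

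Bcl2l11, the gene of the BH3-only protein Bim, behaved in the same range of sizes. It lies on chromosome 2 at 128126038 to 128162547 (gene ID 12125). Tumour libraries ranged from 11.11 to 37.25 CPM (median 19.88) and peritumour libraries from 10.85 to 26.75 CPM (median 14.86). F replicate 5 had the highest tumour level, 37.25 against 18.37 CPM, and 10 of 14 pairs were higher in tumour, among them 1 of the 3 M pairs. The log2 fold change was 0.23 ± 0.10 with the block, adjusted p = 0.128, and 0.24 ± 0.12 without it, adjusted p = 0.306 (edgeR).

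Bcl2 itself was scarce and lower in 12 of 14 tumours, with 1 tumour far in the opposite direction. The gene lies on chromosome 1 at 106538176 to 106714290 (gene ID 12043). Peritumour libraries ranged from 1.265 to 4.689 CPM (median 3.756), and 13 tumour libraries from 0.8816 to 4.235 CPM. Tumour tissue of F replicate 2 held 12.96 CPM beside 2.922 CPM in its peritumour tissue, and the other exception was M replicate 3, 1.536 against 1.265 CPM. The lowest ratio was in F replicate 11, at 0.8816 CPM beside 3.028 CPM in the peritumour library. Over all animals the log2 fold change was -0.41 ± 0.20 with the block, adjusted p = 0.195, and -0.34 ± 0.24 without it, adjusted p = 0.448 (edgeR). Without F replicate 2 the blocked value was -0.56 ± 0.15 with adjusted p = 0.0215, and the unblocked value was -0.56 ± 0.20 with adjusted p = 0.127. Lymphocytes are known to express Bcl2. In F replicate 2 the T and NK cell markers (7 of 8 in the table) summed to 32.27 CPM, beside 15.85 CPM around the tumour, and the 5 B cell markers to 3.977 and 2.208 CPM. Over all pairs the T and NK sum ranged from 7.104 to 38.49 CPM in tumour and 9.273 to 35.85 CPM in peritumour tissue, and the B cell sum, with Ms4a1 and Pax5 at 0 in some libraries, from 0.832 to 9.197 and from 1.024 to 14.54 CPM. F replicates 2, 3 and 5 had the highest tumour levels of Bcl2 (12.96, 4.235 and 3.556 CPM). Their tumours had the highest T and NK sums as well (32.27, 38.49 and 28.91 CPM). Around the tumour Bcl2 was 4.324 CPM in F replicate 3 and 4.155 CPM in F replicate 5. Tumour tissue of F replicate 2 also had the highest cholangiocyte sum, 1928 CPM against a tumour median of 68.75. The part of lymphocytes or biliary cells in the Bcl2 values was not tested.

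The other 2 anti-apoptotic members gave small positive values that did not pass. Bcl2l1 (chromosome 2, 152758732 to 152834797, gene ID 12048) ranged from 31.56 to 68.96 CPM in tumour (median 49.0) and from 33.56 to 59.3 CPM in peritumour tissue (median 40.94). Pairs were split, 7 higher and 7 lower in tumour, and the highest CPM was again in tumour tissue of F replicate 2. The value was 0.09 ± 0.08 with the block, adjusted p = 0.507, and 0.09 ± 0.09 without it, adjusted p = 0.609 (edgeR). Mcl1 (chromosome 3, 95658410 to 95663179, gene ID 17210) ranged from 166.5 to 295.3 CPM in tumour (median 198.4) and from 157.8 to 237.0 CPM in peritumour tissue (median 185.4). Its gaps were small but mostly in 1 direction, with tumour higher in 13 of 14 pairs on the CPM scale and in 12 with TMM scaling. F replicate 9 had the widest gap, 295.3 against 196.6 CPM. Mcl1 gave 0.15 ± 0.07 with the block, adjusted p = 0.153, and 0.16 ± 0.08 without it, adjusted p = 0.273 (edgeR), with a 95% interval of the mean pair difference from 0.03 to 0.27.

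**Figure D3:**
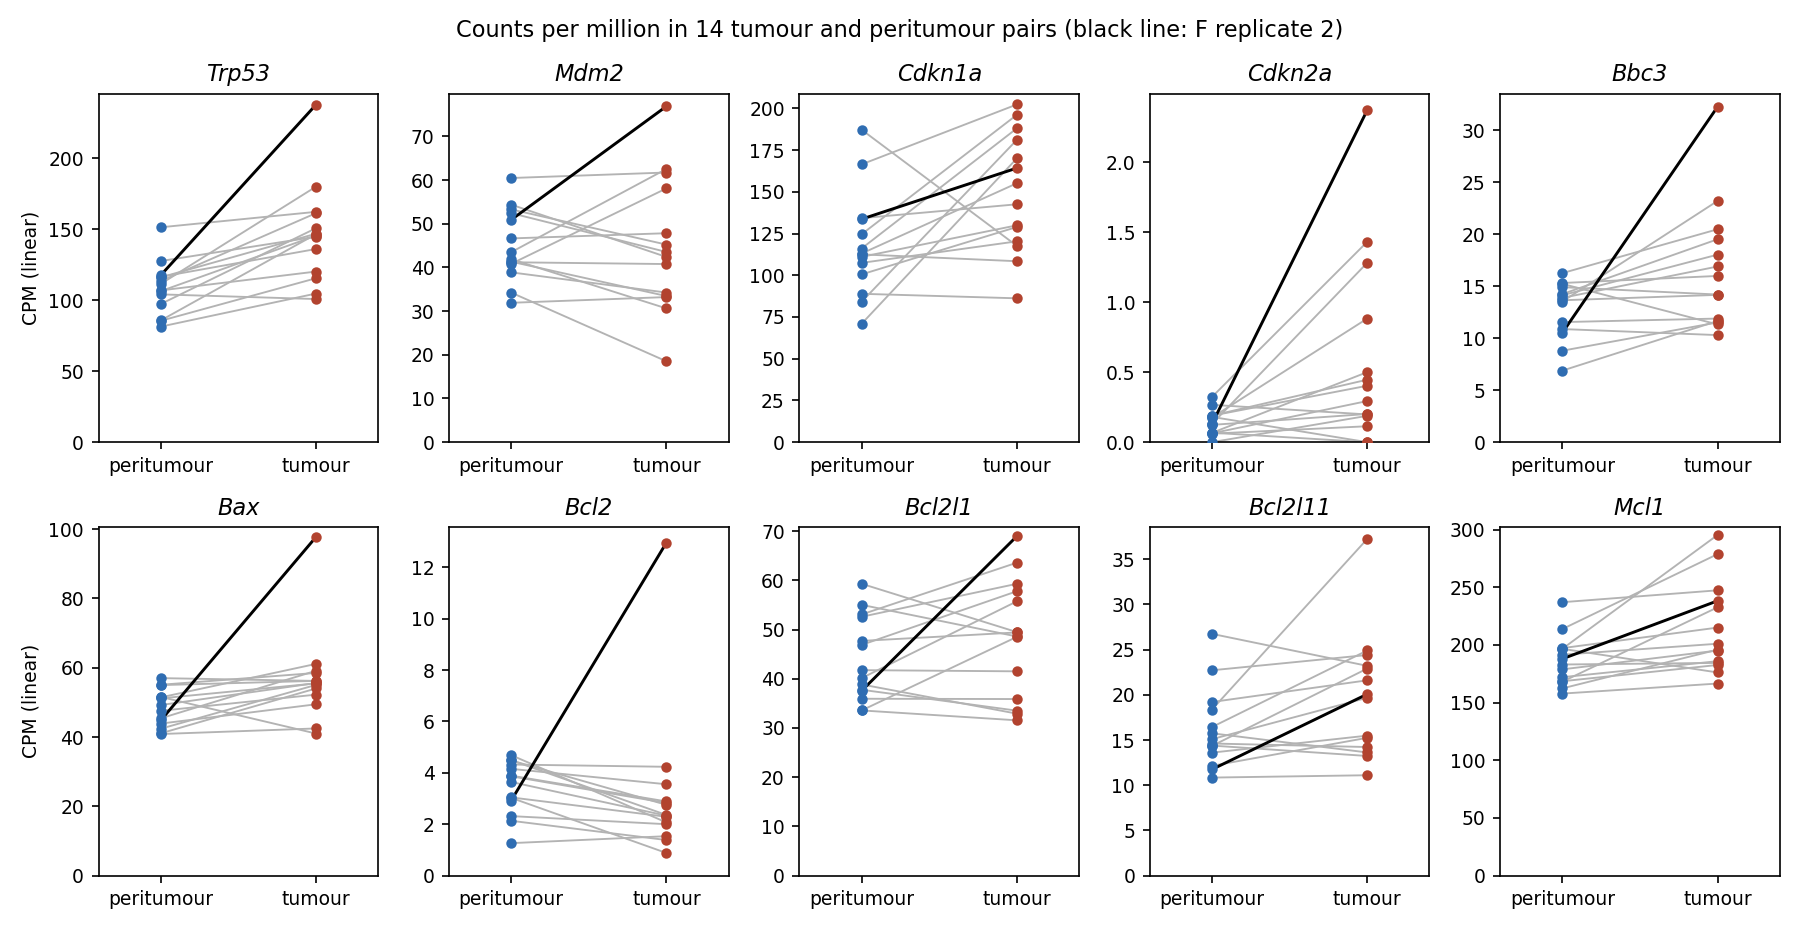
CPM (linear axes from 0) of each member in 14 peritumour (blue) and tumour (red) libraries, with a line joining the tissues of 1 animal and a black line for F replicate 2. Trp53 lines go up in 13 of 14 pairs, Bcl2 lines go down in 12, and F replicate 2 has the highest tumour CPM of Trp53, Mdm2, Cdkn2a, Bbc3, Bax, Bcl2 and Bcl2l1, before TMM scaling.

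In CPM, tumour tissue of F replicate 2 thus held the highest tumour level of 7 of the 10 members, and not of Cdkn1a (164.2 CPM), Bcl2l11 (20.08 CPM) or Mcl1 (238.2 CPM). With CPM divided by the TMM factor it held the highest of 4, Cdkn2a, Bbc3, Bax and Bcl2, while Trp53 and Bcl2l1 were highest in F replicate 11 and Mdm2 in M replicate 3. On the TMM scale, which divides by the factor of 1.36 in that library, its pair differences for Cdkn1a and Mcl1 were slightly below 0. Without that animal the blocked Trp53 value was 0.36 (adjusted p = 0.00848) and the Cdkn2a value 1.42 (adjusted p = 0.0492, edgeR). F replicates 2, 5 and 6 were left out together because earlier results of these data named them for blood cell precursor transcripts. They are not the only such animals: the highest erythroid precursor sum of all libraries, 1722 CPM, was in tumour tissue of F replicate 4 (240.1 CPM around it), which was kept. Leaving the 3 out gave 0.38 for Trp53 (adjusted p = 0.0119) and -0.62 for Bcl2 (adjusted p = 0.0232) with the block. Cdkn2a then no longer passed the low count filter and was not tested.

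**Figure D4:**
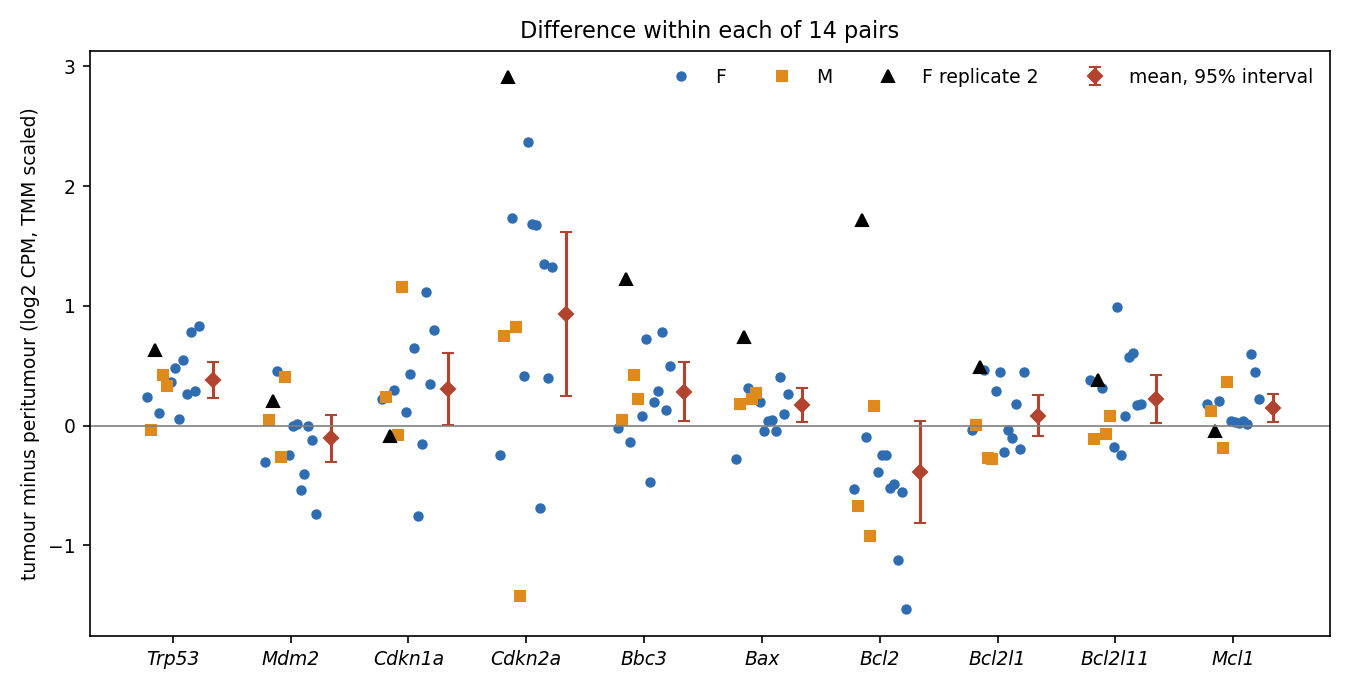
Tumour minus peritumour difference in log2 CPM (TMM scaled, prior count 2) for each of 14 animals, F in blue, M in orange and F replicate 2 as a black triangle, with the mean and its 95% t interval in red. The interval of Trp53 runs from 0.23 to 0.53, and those of Mdm2, Bcl2 and Bcl2l1 include 0.

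Among F animals alone as a contrast of the 4 groups, the same 2 members were called with the block. Trp53 gave 0.42 ± 0.08 (adjusted p = 0.00726) and Cdkn2a 2.00 ± 0.51 (adjusted p = 0.0236, edgeR; 0.0512 without F replicate 5), against a background of 9.84% of genes. Without the block neither passed (adjusted p = 0.06 and 0.0568), and the background was 0.312%. The Cdkn2a call here is again that of a gene admitted to the test by its tumour libraries. In a fit of F libraries alone Cdkn2a was under the low count filter and not tested. Trp53 was then the only member called with the block. Bcl2l11 did not pass in that contrast, at 0.30 ± 0.10 with the block, adjusted p = 0.0755 (edgeR).

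No member passed between tumour and peritumour tissue of the 3 M animals, and no gene of the table did in edgeR with or without the block (574 and 1361 genes had an unadjusted p under 0.05 without and with it, and DESeq2 called 3 and 102). Blocked values there were 0.24 ± 0.16 for Trp53, 0.44 ± 0.28 for Cdkn1a and -0.52 ± 0.45 for Bcl2, with adjusted p of 0.622, 0.618 and 0.703. In the test of the difference itself, M against F in the step from peritumour to tumour, no member passed either, and the smallest adjusted p among members was 0.694 with the block (Bcl2l1, -0.34 ± 0.18). Of all genes 423 and 1001 had an unadjusted p under 0.05 in that test without and with the block, edgeR called none, and DESeq2 called 1 and 0. Trp53 differed by -0.18 ± 0.18 between the letters (adjusted p = 0.781), so its step is not shown to differ between F and M animals.

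No member passed between M and F animals within 1 tissue. In tumour, 4 genes of the table passed (0.0283%), none of them a member, and the largest member value was Cdkn2a, -1.99 ± 0.88 in M against F, adjusted p = 0.441 (edgeR), from 0, 6 and 7 counts in the 3 M tumours. In peritumour tissue the background was also 0.0283% and every member had an adjusted p of 1.0. All M animals have the first code style, so only the 3 F animals of that style compare with them directly.

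Few genes of the wider pathway passed. Of 26 further p53 targets 2 rose with the block and none fell. Btg2, an antiproliferative p53 target, had tumour levels of 33.73 to 111.0 CPM (median 53.37) beside 23.29 to 60.19 CPM (median 44.56) in peritumour tissue and rose by 0.40 ± 0.10, adjusted p = 0.0186 (edgeR). Tnfrsf10b, the mouse death receptor for Trail, had a median of 10.28 CPM against 7.979 CPM around the tumour and rose by 0.47 ± 0.14, adjusted p = 0.046. Its call was lost without any 1 of 9 animals (adjusted p up to 0.0974), among them F replicate 2, and its value was 0.29 without F replicates 2, 5 and 6 (adjusted p = 0.149). Neither passed without the block (0.143 and 0.0807). The list's median log2 fold change was 0.08, with 15 positive and 11 negative estimates.

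Other familiar p53 targets varied widely between animals. Ccng1, cyclin G1, ran from 18.22 to 167.7 CPM in tumour and 13.04 to 113.9 CPM in peritumour tissue, with pair differences from -1.70 (F replicate 7) to 1.73 (F replicate 6) on the log2 scale and a blocked value of -0.06 ± 0.25, adjusted p = 0.897 (edgeR). Pmaip1, the BH3-only gene of Noxa, reached 37.85 CPM in tumour tissue of F replicate 2 against a tumour median of 2.197 and a peritumour range of 0.9883 to 2.904 CPM, and gave 0.39 ± 0.35, adjusted p = 0.487. Zmat3, an RNA-binding p53 target, gave 0.36 ± 0.21, adjusted p = 0.272, with 9 of 14 pairs higher in tumour.

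Of the p53 regulators and relatives 16 of 18 were tested, and 1 rose with the block. Trp53bp1, the double-strand break adaptor 53BP1, was higher in 13 of 14 pairs (median 29.53 against 23.94 CPM) and rose by 0.33 ± 0.08, adjusted p = 0.0195 (edgeR; 0.0815 without the block). Mdm4, the partner of Mdm2 that also restrains p53, gave -0.16 ± 0.07, adjusted p = 0.112, with tumour lower in 10 of 14 pairs. The p53 relatives Trp63 and Trp73 did not pass the low count filter, at no more than 0.2641 and 0.1853 CPM in any library.

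Of 18 further Bcl2 family genes 16 were tested and 1 rose, Bid, the BH3-only protein that links death receptors to mitochondria. Bid ranged from 17.54 to 49.96 CPM in tumour (median 31.62) and 14.55 to 34.28 CPM in peritumour tissue (median 21.28), and tumour was higher in 13 of 14 pairs. It rose by 0.44 ± 0.10 with the block (adjusted p = 0.0138) and by 0.44 ± 0.11 without it (adjusted p = 0.0417, edgeR), the only gene of the 5 pathway lists to pass in both fits. Its blocked call held without each animal in turn (0.00603 to 0.0339). The unblocked call of Bid was lost in 12 of the 14 omissions (adjusted p 0.0306 to 0.11), all but those of M replicate 1 and F replicate 5, and without the low count filter (0.0521). Bak1, the other pore-forming effector, gave 0.27 ± 0.11, adjusted p = 0.0994 (0.0365 without M replicate 3), and passed among F animals with the block (0.38 ± 0.11, adjusted p = 0.0392). Bad, a BH3-only gene, gave 0.12 ± 0.08 and Bcl2l2, the gene of Bcl-w, 0.04 ± 0.07, with adjusted p of 0.388 and 0.728.

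Of the 16 caspases and partners 2 rose and 1 fell with the block. Xiap, an inhibitor that binds caspases directly, was lower in tumour in 13 of 14 pairs (median 50.47 against 66.07 CPM) and fell by 0.45 ± 0.10 on the log2 scale, adjusted p = 0.0107 (edgeR). Its blocked call held without each animal in turn, and without the block adjusted p was 0.121. Htra2, a mitochondrial protease that antagonises Xiap, rose by 0.34 ± 0.10 (adjusted p = 0.0422), and Parp1, the DNA repair enzyme that caspases cleave, by 0.23 ± 0.07 (0.0386). Of 20 cell cycle inhibitors and Rb route genes 1 rose, Cdk4, the kinase that p16Ink4a inhibits, by 0.29 ± 0.09 (adjusted p = 0.0392). The calls of Htra2, Parp1 and Cdk4 were each lost without 7, 8 and 9 of the 14 animals, with adjusted p up to 0.0888, 0.0856 and 0.0842, and without the block none of these passed (0.151, 0.268 and 0.207). The 7 tested genes named above that did not pass with the block (Ccng1, Pmaip1, Zmat3, Mdm4, Bak1, Bad and Bcl2l2) had adjusted p from 0.249 to 0.88 without it, and the value of Pmaip1 was then 0.70 ± 0.36. The share called ran from 5.0% (the Rb route) to 18.8% (the caspases) over the 5 lists, beside 11.5% of all genes.

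**Figure D5:**
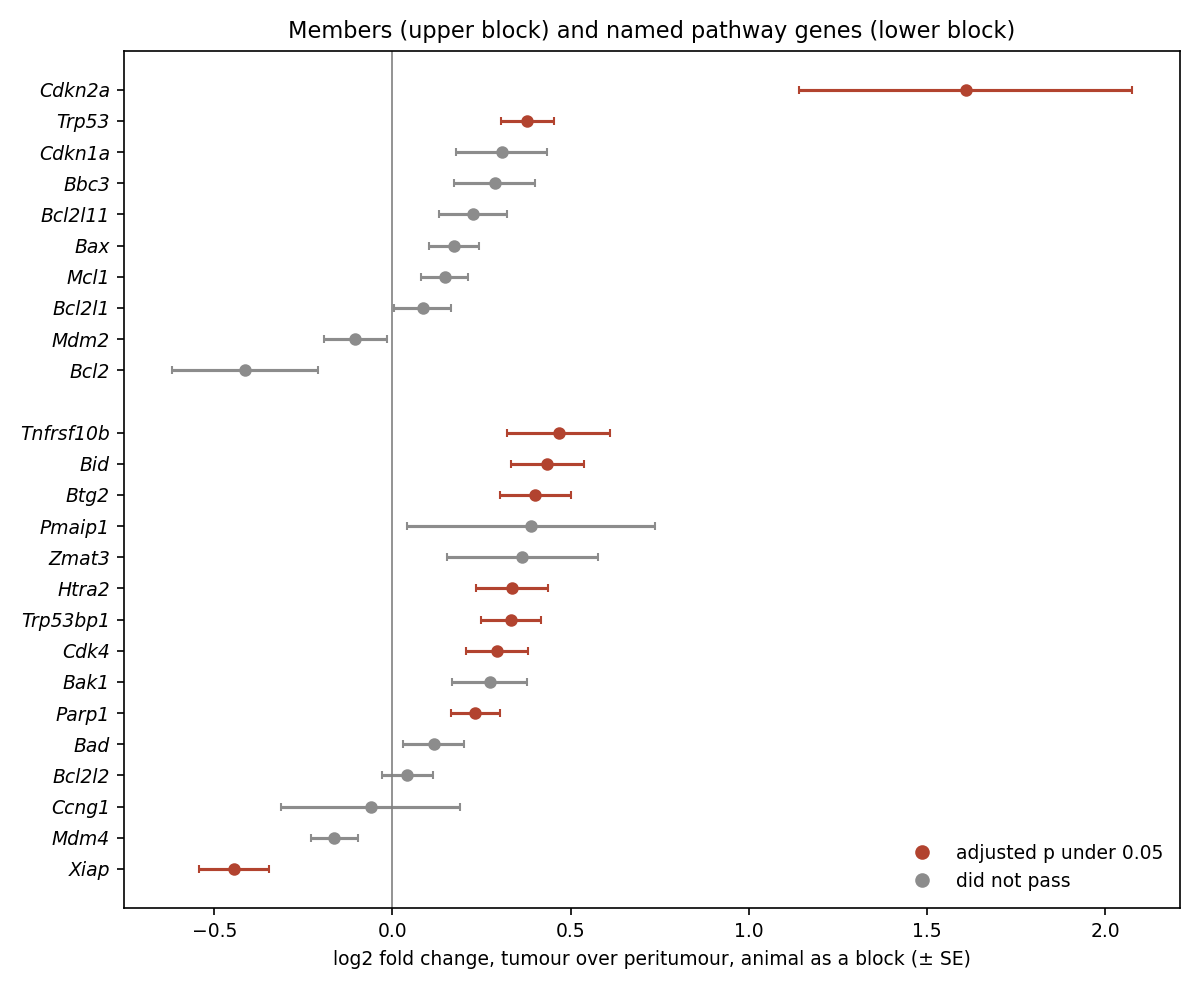
Log2 fold change of tumour over peritumour with the animal as a block (± SE), members above and named pathway genes below, red where the adjusted p is under 0.05 (edgeR) and grey where it is not. Cdkn2a has the largest value and the widest error (1.61 ± 0.47), and of the genes with values below 0 only Xiap passed.

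Whether the p53 targets moved together from animal to animal was examined over the 14 pair differences for 8 relations, 6 of them tested. None passed Benjamini-Hochberg adjustment over the 6. The strongest was Bax with Bbc3 (Pearson r = 0.573, permutation p = 0.035, adjusted 0.21; Spearman rho = 0.38, permutation p = 0.179), and r was 0.154 without the 2 pairs farthest from the median of Bax, so it rests on those pairs. Within code styles that r was 0.754 (6 pairs) and 0.335 (8 pairs). Cdkn1a with Mdm2 gave r = 0.357 (permutation p = 0.21) and Cdkn1a with Bbc3 r = 0.0 (permutation p = 0.999). With scaling by library size alone, Bax with Bbc3 (r = 0.708) and Mdm2 with Bax (r = 0.631) each had an adjusted permutation p of 0.048. For Cdkn2a, too low for a test, r was -0.206 with Cdkn1a and 0.072 with Mdm2.

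By the likeness of pair differences over the 14 animals, among 10485 genes of at least 5 CPM, the genes nearest to Cdkn2a were Mcam (r = 0.881), C1qtnf6 (0.866), Pdlim7 (0.861), Xaf1 (0.854) and Camk1 (0.854). Nearest to Cdkn1a were Spats2 (0.822), Gnpda1 (0.821), Tob1 (0.821), Vps45 (0.817) and Rtca (0.807). Nearest to Bcl2 were Phactr2 (0.937), Ctbp2 (0.931), Tbc1d9 (0.928), Slc25a36 (0.928) and Plxdc2 (0.916), which lay between 0.78 and 0.848 without F replicate 2. These are descriptions over points that share library scaling, chosen as the highest of many.

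The authors' deposited table compares peritumour with tumour in columns named for degseq. It gives q under 0.05 for 8 of the 10 members, all higher in tumour, where 66.0% of the 17346 genes with a value pass. The members that do not pass there are Mdm2 (log2 fold change -0.01, q = 0.581) and Bcl2 (-0.15, q = 0.0776). In the authors' deposited table Trp53 stands at 0.44 and Cdkn2a at 2.09.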

How the data were processed

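RNA was sequenced from tumour and peritumour tissue of 14 c-Myc/Alb-cre mice (28 libraries), after Trizol extraction and oligo(dT) selection, per the labels' protocols. Per the submitters' processing notes, which give no roles, the tools include RSEM 1.2.12, HISAT2 2.0.4, DESeq2 1.4.5 and also Bowtie2 2.2.5. Strand and annotation are not given in the sources used here. The authors deposited 1 table of estimated counts, FPKM and TPM per gene and library, per the file headers. The authors' deposited table also holds log2 fold changes with p-values and q-values, in columns named for degseq. FPKM was not used here, and 8.06% of the deposited count values are not whole. The 3 mean and 6 comparison columns for a group called Li, absent from the labels, were not used. Coordinates are those of the deposited table, and its strand column was not used, since it differs from RefSeq (GRCm38.p6) for 14.5% of 14248 genes compared, Bcl2 and Bcl2l1 among them.

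Estimated counts were rounded and tested with edgeR 4.0.16 in R 4.3.3: TMM, filterByExpr (14117 genes, all 10 members among them), robust quasi-likelihood fit, Benjamini-Hochberg adjustment over all genes tested, threshold 0.05. Tumour against peritumour was fitted with code style and letter as covariates, and the 4 groups in 1 fit with code style. Shared codes mark the tissues of 1 animal, so the fit with the animal as a block stands beside the other. The check of pairing gave correlations of deviations from 0.135 to 0.61 within pairs (median of other tissue pairs -0.0171). The tumour matched its own peritumour library best in 10 of 14 animals. Alternatives were library size alone, no filter, DESeq2 1.42.0, each animal left out, F replicates 2, 5 and 6 left out, and single code styles. Pair differences are log2 CPM with a prior count of 2. No 2 libraries of a group agreed within sampling noise (lowest index of dispersion 19.3). Without the block p-values rest on the spread between libraries, with the 2 libraries of 1 animal treated as independent. With the block they rest on how the step from peritumour to tumour varies between these animals. Scripts were tested on simulated counts.

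The members, 5 pathway lists (p53 targets, p53 regulators and relatives, other Bcl2 family, caspases and partners, cell cycle inhibitors and Rb route) and the designs were chosen with earlier results of these data known. Named genes are the members, up to 3 risen and 3 fallen per list by adjusted p with the block, 10 genes always given (Mdm4, Bak1, Bcl2l2, Bid, Bad, Pmaip1, Ccng1, Zmat3, Trp63, Trp73) and the 5 genes most like Cdkn1a, Cdkn2a and Bcl2 over pairs (at least 5 CPM, no predicted genes).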

Additional observations from a re-analysis of the deposited data

How the results depend on the processing

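Over all libraries 148 genes passed without the replicate block (edgeR). That count was 64 without the low count filter, 622 with DESeq2, 455 without F replicates 2, 5 and 6 together, and 0 in the first code style, the second code style or the F libraries alone. With the replicate block it was 1624, then 1828 with library size alone (1151 higher and 677 lower, beside 789 and 835 with TMM), 1356 without the filter, 2387 with DESeq2, 2057 without F replicates 2, 5 and 6, 0 and 981 in the first and second code style, and 1256 in F libraries alone. Leaving out 1 animal gave 0 to 246 genes, and 899 to 1957 with the block. For Tu_F against Pe_F 44 genes (37 higher, 7 lower) became 24 with library size alone (24 and 0), 10 without the filter, 546 with DESeq2, 13 without F replicates 2, 5 and 6, and 0 to 75 without 1 animal. With the block these were 1389 (650 and 739), 1486 (896 and 590), 1151, 2249, 1246 and 756 to 1523. For Tu_M against Pe_M the count of 0 was 3 with DESeq2, 102 with the block and DESeq2, and 0 to 4 without 1 animal. Between tumours of M and F it was 4, and 68 with DESeq2 and 7 without F replicates 2, 5 and 6. DESeq2 called 1 gene in the difference between letters. The cause of these shifts was not tested.

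Of the members 1 passed over all libraries without the block (0 without the low count filter, 2 with DESeq2) and 2 with it (1 without the filter). Cdkn2a was not tested in single code styles, in F libraries alone or without F replicates 2, 5 and 6, where it was under the low count filter. None of the values that changed sign passed a test. In the first code style Mdm2 was 0.11 (0.10 with the block), Bcl2 0.066, Bcl2l2 -0.008 (-0.015) and Ccng1 0.51 (0.41). Without F replicates 2, 5 and 6, with the block, Pmaip1 was -0.0064, and the difference between letters was 0.0003 for Bbc3 and 0.13 for Bcl2. Library size alone moved the median of all genes in M against F from -0.02 to -0.13 in peritumour tissue and from 0.00 to -0.11 in tumour. On that scale Bax was -0.12 and Bcl2l1 -0.052 in peritumour tissue, and in tumour Mdm2 was -0.10, Cdkn1a -0.11, Bbc3 -0.0026, Bax -0.066 and Mcl1 -0.063. Bcl2l11 in Tu_M against Pe_M was then 0.011 (0.0091 with the block).

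Without 1 animal, over both fits, the difference between letters ranged from -0.16 to 0.43 for Cdkn1a, -0.17 to 0.040 for Bbc3, -0.52 to 0.093 for Bcl2 and -0.18 to 0.079 for Mcl1. In peritumour tissue M against F it was -0.049 to 0.097 for Bax and -0.012 to 0.16 for Bcl2l1. In tumour it was -0.10 to 0.17 for Mdm2, -0.28 to 0.28 for Cdkn1a, -0.016 to 0.39 for Bbc3 and -0.12 to 0.18 for Mcl1. Tu_M against Pe_M gave -0.078 to 0.24 for Mdm2, -0.28 to 1.15 for Cdkn2a, -0.058 to 0.017 for Bcl2l11 and -0.001 to 0.25 for Mcl1. Ccng1 over all libraries ran from -0.24 to 0.064.

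Relations between pair differences also changed. Without the 2 farthest pairs r was -0.06 for Cdkn1a and Mdm2, -0.024 for Cdkn1a and Bbc3, 0.266 for Mdm2 and Bbc3 and 0.246 for Cdkn2a and Cdkn1a. In the first code style r was -0.15 for Cdkn1a and Bax, -0.377 for Cdkn1a and Bbc3, 0.026 for Mdm2 and Bbc3 and -0.774 for Cdkn2a and Cdkn1a, and in the second -0.064 for Mdm2 and Bax and 0.248 for Cdkn2a and Cdkn1a. With library size alone r was 0.276 for Mdm2 and Bbc3, 0.631 for Mdm2 and Bax and 0.708 for Bax and Bbc3. Depth limits Cdkn2a, with 0 to 5 counts in peritumour libraries, and the 3 M animals limit every comparison of M with F.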
